A study of Rattus norvegicus with 32 samples.

Results

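Histone and DNA modifying enzymes were described in liver sinusoidal endothelial cells (LSECs), the fenestrated endothelium of the hepatic sinusoid, isolated from rats at successive stages of chronic liver disease. Members were all genes whose symbol belongs to the families of lysine demethylases (Kdm), lysine methyltransferases (Kmt and Setd), histone deacetylases (Hdac), sirtuins (Sirt), lysine acetyltransferases (Kat), DNA methyltransferases (Dnmt), TET dioxygenases and the Ezh methyltransferases. No expression value entered that rule, which was chosen with earlier results of these data known. It gave 67 of the 32623 genes in the count tables, comprising 18 lysine demethylases, 16 Kmt and Setd methyltransferases, 11 histone deacetylases, 7 lysine acetyltransferases, 6 sirtuins, 4 DNA methyltransferases, 3 TET and 2 Ezh genes. Poly(A) RNA of LSECs had been sequenced in 32 libraries. Male Wistar Han rats inhaled carbon tetrachloride (CCl4), a liver toxin used to induce scarring, for 2 weeks (acute injury, n = 5), 6 weeks (fibrosis, n = 5) or 12 to 14 weeks (cirrhosis, n = 6), and untreated rats gave the healthy LSECs (n = 6). The drinking water of the CCl4 model held phenobarbital, which raises the toxicity of CCl4, and whether the healthy rats drank it is not stated. LSECs were isolated on an iodixanol gradient some days after the last dose. In a second experiment with thioacetamide (TAA), another hepatotoxin, the labels name a control group (n = 5) and a TAA control group (n = 5), and the labels and the methods do not settle which of these received TAA, nor whether the rats were Wistar Han or Sprague-Dawley. The labels name no transgene or deletion in any group.

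Chromatin enzymes set and remove chemical groups on histones and on DNA. Acetyl groups placed by acetyltransferases go with open chromatin and transcription, and deacetylases remove them, either with zinc (the HDACs) or with NAD (the sirtuins). Methyl groups on histone lysines can go with active or with silent genes depending on the lysine, and each is placed by particular methyltransferases and removed by particular demethylases. DNA methyltransferases place methyl groups on cytosine, and TET dioxygenases oxidise them as a step towards their removal. In endothelium, Hdac7 is known for its part in vascular integrity and Ezh2 for silencing by Polycomb repressive complex 2 (PRC2).

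Total counts ranged from 25646531 to 46464289 per library. Expression is given as CPM (counts scaled to a common library total) with TMM factors, which scale libraries to each other, and the 22 CCl4 libraries and the 10 libraries of the TAA experiment were scaled apart, so that CPM is compared only within each experiment and only within a gene. The median SD of log2 CPM over the members was 0.412 among healthy libraries and lay between 0.0982 and 0.157 in the acute, fibrosis and cirrhosis groups, beside 0.466 and 0.157 to 0.221 over all genes with a mean of at least 1 CPM. Over the 33 Kmt, Setd and Kdm genes with a mean of at least 1 CPM, healthy replicate 2 held the lowest healthy value in 15 and replicate 6 in 8. The highest healthy value was that of replicate 6 in 13 and that of replicate 5 in 10. LSEC identity genes moved with the stages. The sum of 9 such genes was 14495 to 28718 CPM in healthy libraries, 3499 to 4159 in acute, 2381 to 3351 in fibrosis and 15445 to 19692 in cirrhosis, and 7 of 9 were lower in acute injury (Stab2, a scavenger receptor of LSECs, with mean CPM of 3483 in healthy and 148 in acute libraries), although Cdh5, an endothelial cadherin, was at a mean of 1294 and 1597 CPM. A list of 11 immediate-early and dissociation response genes summed to 31055 to 66393 CPM in healthy, 955 to 4575 in acute, 3774 to 6230 in fibrosis and 22420 to 40791 in cirrhotic libraries, and 11 of 11 were lower in acute injury. All 6 hepatocyte genes were lower in acute injury as well (summed CPM 702 to 17088 in healthy and 86.8 to 777 in acute libraries), and 6 of 7 stellate cell and fibroblast genes were higher in cirrhosis than in healthy LSECs (477 to 1680 against 165 to 603 CPM). Of 6 macrophage genes 5 were lower in acute injury, 6 were lower in fibrosis and 6 were higher in cirrhosis than in fibrosis, with sums of 235 to 2221 CPM in healthy, 55.7 to 187 in acute, 24.8 to 148 in fibrosis and 536 to 1935 in cirrhotic libraries. T and NK cell genes (3 of 3 tested), B cell genes (2 of 3), the 1 neutrophil gene tested and cholangiocyte genes (2 of 3) were lower in acute injury too, and 5 of 5, 2 of 3, 3 of 3 and 3 of 4 were higher in cirrhosis than in fibrosis. Each of these lists differed between stages. Between fibrosis and acute injury 6 of 6 hepatocyte, 5 of 7 stellate cell and fibroblast and 4 of 11 immediate-early genes were higher and 0 lower. In the same comparison 2 of 6 macrophage genes were lower and 0 higher, and 0 of 9 LSEC genes and 0 of 61 members were called by the rule given below. The part of the lists in the results given here was not tested. Sequencing batch is not given in the labels, and an effect of batch cannot be told apart from one of stage. In these bulk libraries, fewer cells of a type and less RNA per cell cannot be told apart either.

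In acute injury the members moved mostly upwards. A gene was called a differentially expressed gene (DEG) at a Benjamini-Hochberg adjusted p-value under 0.05 over all genes tested in limma-voom together with a fold-change above 1.5. In acute against healthy LSECs 49 of 65 members tested were called (75.4%), beside 73.4% of all 14317 genes tested, so that the share itself was near the background. Of these members 33 were higher (50.8%, beside 35.5% of all genes) and 16 were lower (24.6%, beside 37.9%). The median log2 fold change over the members was 0.62, and over all genes −0.0855. In 44 members (67.7%) the healthy and the acute libraries did not overlap, beside 60.0% of all genes.

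Fibrosis against healthy LSECs gave similar counts from another 5 libraries, with the healthy libraries shared. There 47 of 65 members were called (72.3%, beside 70.2% of all genes), of which 32 were higher (49.2%, beside 35.3% of all genes) and 15 lower (23.1%, beside 34.9%), with a median log2 fold change of 0.511 beside −0.0312 over all genes. The groups did not overlap in 41 members (63.1%, beside 58.7%). In cirrhosis against healthy LSECs 41 of 65 members were called (63.1%, beside 51.8% of all genes), of which 24 were higher (36.9%, beside 27.1%) and 17 lower (26.2%, beside 24.7%). The median log2 fold change of the members was then −0.0396, with 0.0704 over all genes, and the groups did not overlap in 27 members (41.5%, beside 27.2%).

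No member was called between fibrosis and acute injury with limma-voom, of 61 tested, beside 11.0% of all genes (10.2% higher and 0.732% lower). At an unadjusted limma-voom p-value under 0.05 there were 12 members, and at an adjusted one 3, which fell short of the fold-change threshold. The shares of all genes at these p-values alone are not given here, so that these counts have no background beside them. edgeR and DESeq2 called 0 members as well, and the groups did not overlap in 6 members (9.84%, beside 17.2% of all genes). From fibrosis to cirrhosis 35 of 65 members were called (53.8%, beside 63.8% of all genes), of which 13 were higher (20%, beside 34.3%) and 22 lower (33.8%, beside 29.5%), with a median log2 fold change of −0.24 beside 0.0383, and the groups did not overlap in 45 members (69.2%, beside 63.3% of all genes). Acute against healthy and cirrhosis against fibrosis share no library. Of the 33 members higher in acute injury 20 were lower in cirrhosis than in fibrosis, and of the 16 lower in acute injury 10 were higher, while none was called in the same direction in both. These 30 members were 61.2% of those called in acute injury and 85.7% of those called from fibrosis to cirrhosis, beside 70.0% and 81.2% of all genes, of which 0.892% of the first were called in the same direction in both. In the TAA experiment 4 of 64 members were called (6.25%), beside 27.6% of all genes.

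**Figure D1:**
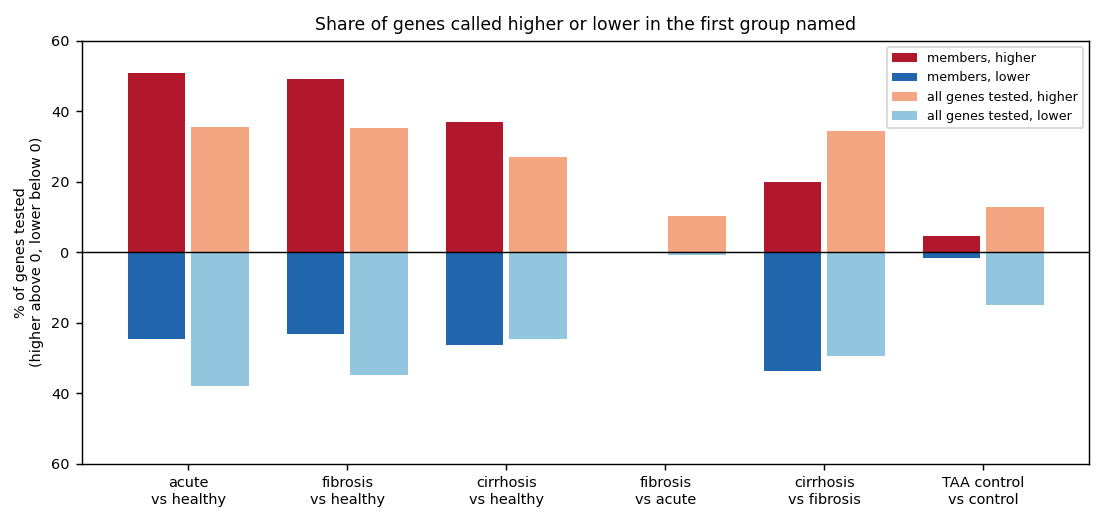
Share of genes called higher (above 0) or lower (below 0) in the first group of each comparison, in percent of the genes tested, for the members in dark colours and all genes tested in light colours. In acute against healthy LSECs 50.8% of members were higher against 35.5% of all genes, and from fibrosis to cirrhosis 33.8% of members were lower against 29.5%.

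The families are given by their calls against healthy LSECs, to be read beside the shares of all genes called higher and lower, which were 35.5% and 37.9% in acute injury, 35.3% and 34.9% in fibrosis and 27.1% and 24.7% in cirrhosis. Among the Kmt and Setd methyltransferases 12 of 16 were higher and 1 was lower in acute injury (median log2 fold change 1.13), 11 were higher and 1 lower in fibrosis, and 8 were higher and 4 lower in cirrhosis, each against healthy LSECs. Lysine demethylases had 10 of 17 higher and 2 lower in acute injury and in fibrosis alike, and 8 higher and 3 lower in cirrhosis. Of 7 lysine acetyltransferases 4, 3 and 3 were higher at the 3 stages and 0, 0 and 1 lower. HDACs had 2 of 11 higher and 5 lower in acute injury and in fibrosis, and 2 higher and 4 lower in cirrhosis. All 6 sirtuins were lower in acute injury and in fibrosis, and 5 of 6 in cirrhosis. Scaled by library size without TMM, the fold changes of all genes shifted by 0.411, 0.396 and 0.345 (log2) at the 3 stages, and the calls divided into 39 higher and 9 lower, 38 and 11, and 28 and 8. Higher calls were then 81.2%, 77.6% and 77.8% of the members' calls. Over all genes under the same scaling they were 58.2%, 60.9% and 71.3% of the calls, and with TMM factors 48.4%, 50.3% and 52.2%. Under that scaling 3, 4 and 3 of 6 sirtuins were called lower, none of the members called under TMM changed sign, and the median of the HDACs in acute injury went from −0.218 to 0.182. No call of a higher member was lost against healthy LSECs, and 7, 4 and 9 calls of lower members were. These were Dnmt1, Tet1, Kmt5c, Kdm4b, Sirt4, Sirt5 and Sirt7 in acute injury, Kmt5c, Kdm4b, Sirt5 and Sirt7 in fibrosis, and Kmt2b, Kmt5c, Setd4, Setd6, Kdm6b, Kdm8, Hdac10, Sirt4 and Sirt5 in cirrhosis. Calls of higher members gained were Dnmt3a, Setd3, Kdm3b, Kdm5b, Kdm5c and Kdm8 in acute injury. In fibrosis they were Setd3, Setd6, Kdm3b, Kdm5b, Kdm5c and Kat2a, and in cirrhosis Setd3, Kdm2a, Hdac1 and Tet3. The Kmt and Setd genes then had 13 higher and 0 lower, 13 and 0, and 9 and 0 at the 3 stages, and the lysine demethylases 14 and 1, 13 and 1, and 9 and 1.

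**Figure D2:**
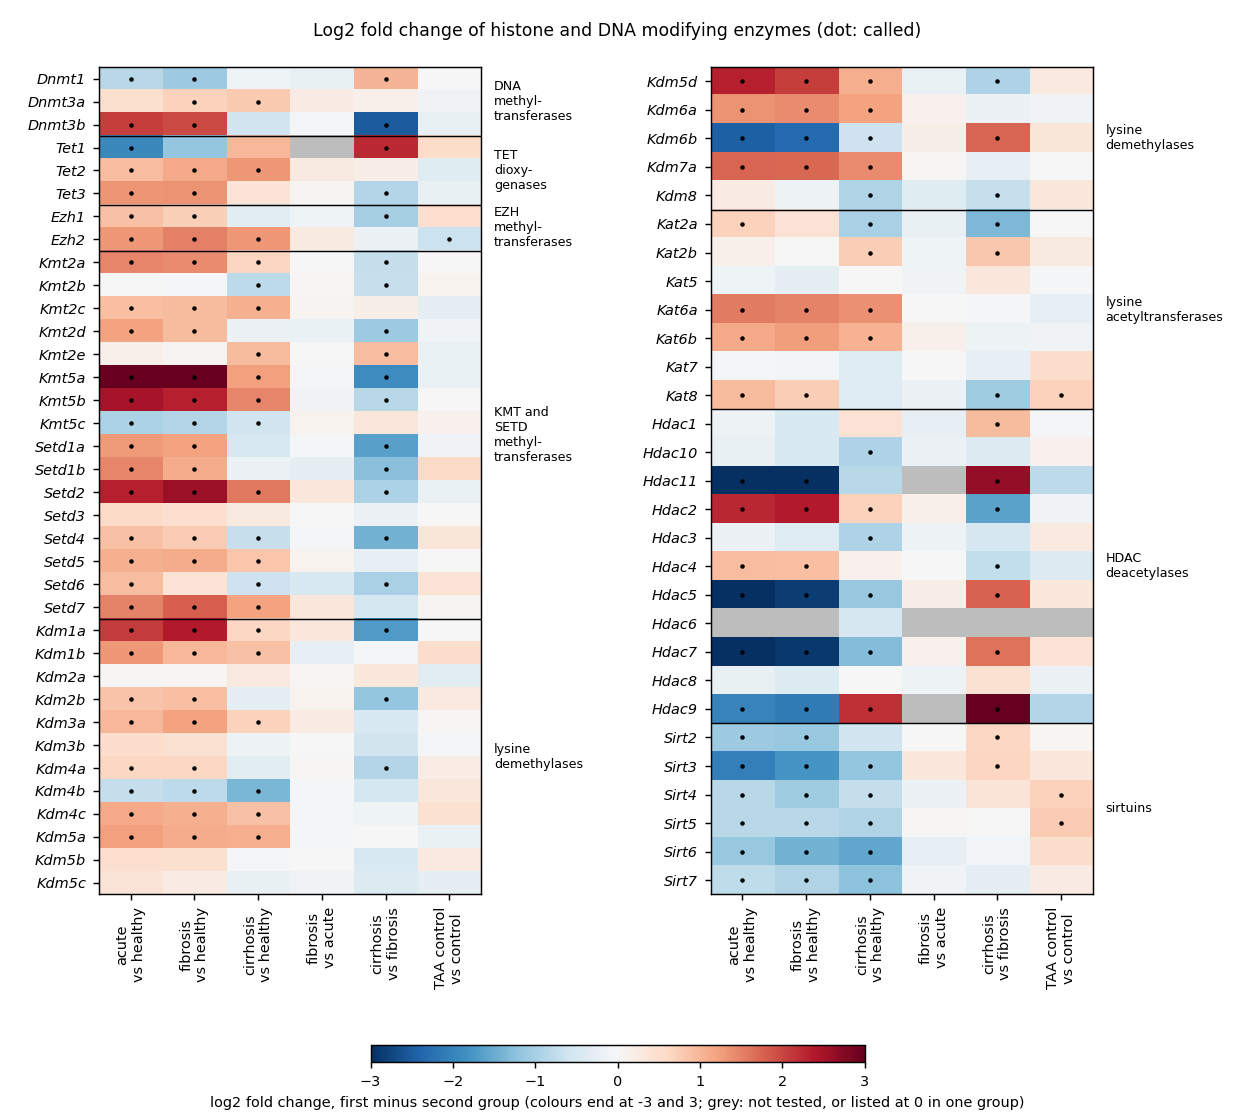
Log2 fold change of each tested member (rows, by family) in the 6 comparisons (columns), in colours that end at −3 and 3, with a dot for members called and grey where a member was not tested or was listed at 0 in one group. Methyltransferases and demethylases are mostly red in the columns of acute injury and fibrosis, the 6 sirtuins are blue there, and the column of fibrosis against acute injury holds no dot.

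Promoter windows of the members were read from RefSeq (assembly GRCr8, 250 bases before and 50 after the annotated start), which matched 55 of the 67 members among 33465 windows. Members' windows held a median of 20 CpG pairs, beside 7 over all windows. Letters known from E2F binding sites (TTTGGCGC, TTTCCCGC or TTTCGCGC, on either strand) were in 4 of 55 members' windows (7.27%), beside 1.72% of all windows. These 4 are shown as the members whose windows hold the letters. Ezh2 and Kdm1a were higher in acute injury, and Dnmt1 and Kmt5c were called lower with TMM factors but not when scaled by library size. Capitals mark the matched letters, and all 4 genes lie on the minus strand, at chr8:27762792-27763091 (Dnmt1), chr4:77687134-77687433 (Ezh2), chr5:154121726-154122025 (Kdm1a) and chr1:78135882-78136181 (Kmt5c). A match is a description of letters and was not tested for binding.
Dnmt1: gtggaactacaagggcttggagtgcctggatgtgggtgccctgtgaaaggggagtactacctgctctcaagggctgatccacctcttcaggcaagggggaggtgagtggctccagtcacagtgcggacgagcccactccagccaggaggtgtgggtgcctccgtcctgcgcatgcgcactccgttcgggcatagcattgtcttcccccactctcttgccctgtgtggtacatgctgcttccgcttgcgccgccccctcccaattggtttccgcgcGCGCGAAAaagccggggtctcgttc
Ezh2: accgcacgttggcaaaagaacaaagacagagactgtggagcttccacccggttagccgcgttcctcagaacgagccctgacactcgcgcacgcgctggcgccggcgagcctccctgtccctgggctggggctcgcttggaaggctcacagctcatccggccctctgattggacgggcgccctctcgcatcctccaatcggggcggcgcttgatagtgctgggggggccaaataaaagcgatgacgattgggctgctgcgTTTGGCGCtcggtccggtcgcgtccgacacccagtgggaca
Kdm1a: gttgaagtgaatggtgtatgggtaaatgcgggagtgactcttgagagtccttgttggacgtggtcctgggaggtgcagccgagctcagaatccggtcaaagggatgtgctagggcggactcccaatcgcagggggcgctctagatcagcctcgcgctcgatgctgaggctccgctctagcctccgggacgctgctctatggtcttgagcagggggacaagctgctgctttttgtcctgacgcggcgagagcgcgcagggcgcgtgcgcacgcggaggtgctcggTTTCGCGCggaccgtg
Kmt5c: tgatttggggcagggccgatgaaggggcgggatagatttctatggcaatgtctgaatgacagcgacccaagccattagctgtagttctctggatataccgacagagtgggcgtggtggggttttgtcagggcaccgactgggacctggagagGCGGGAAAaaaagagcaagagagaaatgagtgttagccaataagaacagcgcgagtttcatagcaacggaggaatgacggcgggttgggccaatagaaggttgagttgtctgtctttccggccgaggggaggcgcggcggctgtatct
The cyclic AMP response letters TGACGTCA were in 0 of 55 windows (1.83% of all windows), the AP-1 letters TGANTCA in 1 (1.82%, beside 7.33%), the E-box CACGTG in 6 (10.9%, beside 6.42%) and the ETS letters CCGGAAGT in 5 (9.09%, beside 3.81%), each on both strands.

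DNA methyltransferases moved in different directions. Dnmt1, which copies methylation onto newly made DNA, was at 51.5 to 70.8 CPM (median 62.1) in healthy LSECs. The acute libraries held 32.7, 38.8, 31.6, 44.2 and 24.1 CPM, the fibrosis libraries 29, 25.5, 26.2, 28.7 and 28.7 CPM, and cirrhotic libraries 50.1 to 72.2 CPM (median 52.1). All 10 acute and fibrosis libraries lay below every healthy library, and the cirrhotic and healthy libraries overlapped. Its log2 fold change was −0.84 (SE 0.159, adjusted p = 0.0004) in acute injury, −1.09 (SE 0.114, adjusted p = 3.72e-06) in fibrosis, −0.13 in cirrhosis (adjusted p = 0.41) and 1.02 (SE 0.105, adjusted p = 2.40e-06) from fibrosis to cirrhosis. Its call in acute injury was lost when libraries were scaled by size alone (log2 fold change −0.43). Over the same stages the summed CPM of 11 proliferation genes was 373 to 597 in healthy and 176 to 244 in acute libraries. It was 170 to 217 in fibrosis and 371 to 439 in cirrhotic libraries. Most of this sum came from Pcna and Mcm2 (means of 309 and 120 CPM in healthy LSECs), and the genes did not all move alike. Against healthy LSECs 2 were higher and 7 lower in acute injury and in fibrosis alike. In cirrhosis 4 were higher and 1 was lower. The part of these genes in the values of Dnmt1 was not tested.

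Dnmt3b, which places new methylation, went the other way. It was at 2.90 to 3.83 CPM (median 3.26) in healthy LSECs, at 13.7, 13.4, 12.7, 11.7 and 16.6 CPM in acute injury and at 12.4, 12.2, 10.8, 11.9 and 14.5 CPM in fibrosis. Cirrhotic libraries held 1.55 to 2.70 CPM (median 2.27), below every healthy library. The rise was 2.07 (SE 0.177, adjusted p = 5.79e-07) in acute injury and 1.97 (SE 0.158, adjusted p = 4.20e-07) in fibrosis on the log2 scale, and the fall from fibrosis to cirrhosis, −2.49 (SE 0.137, adjusted p = 9.72e-09), had the lowest log2 fold change of the members in that comparison. Cirrhosis against healthy gave −0.57, which is short of the fold-change threshold although the libraries did not overlap (adjusted p = 0.0174), and which passed it without healthy replicate 1, 4 or 5 or cirrhosis replicate 2, 3 or 6 (−0.59 to −0.64). Dnmt3a, the other enzyme for new methylation, was at 10.4 to 20.8 CPM (median 11.9) in healthy LSECs and at 17.3, 18.6, 18.7, 17.7 and 23.1 CPM in acute libraries. Fibrosis libraries held 20.4, 20.7, 20.3, 23.7 and 21.1 CPM and cirrhotic libraries 20.5 to 27.7 CPM (median 24). Its log2 fold change was 0.49 in acute injury (adjusted p = 0.0473, not called), 0.69 (SE 0.198, adjusted p = 0.00731) in fibrosis and 0.80 (SE 0.180, adjusted p = 0.00263) in cirrhosis. In acute injury it passed without healthy replicate 6 (0.72), with no low-count filter (0.61) and under scaling by library size (0.91). Dnmt3l, a cofactor with no activity of its own, was at 2 counts or fewer in all 22 CCl4 libraries and was not tested.

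**Figure D3:**
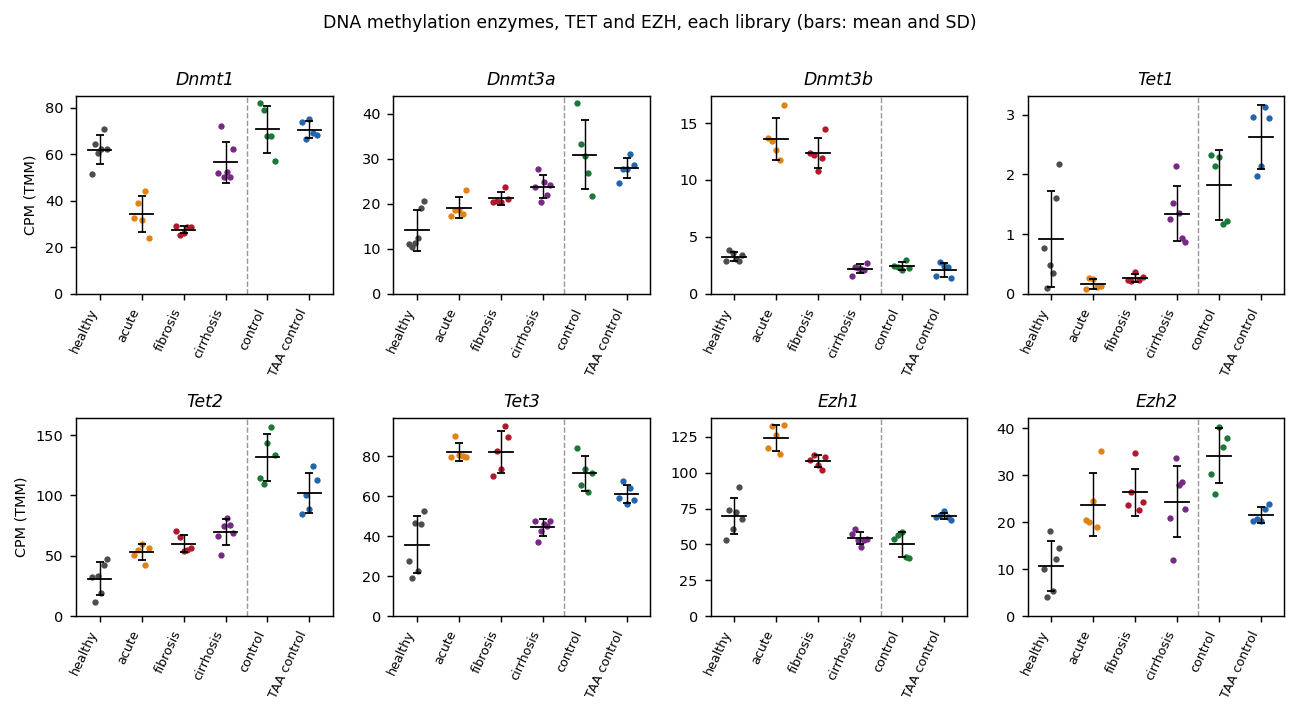
CPM with TMM factors of the DNA methyltransferases, TET dioxygenases and Ezh methyltransferases in each library (points), with the mean and SD of each group (bars). The dashed line separates the CCl4 experiment from the TAA experiment, which were scaled apart. Dnmt1 is lowest and Dnmt3b highest in the acute and fibrosis groups.

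Of the TET dioxygenases, Tet3 was called higher in acute injury and fibrosis. It was at 19.2 to 52.5 CPM (median 36.8) in healthy LSECs, 79.5, 90.1, 80.7, 80.3 and 79.8 CPM in acute injury and 70.2, 82.8, 73.4, 95.4 and 89.7 CPM in fibrosis. Cirrhotic libraries held 37.1 to 47.8 CPM (median 45.6), within the healthy range. Its log2 fold change was 1.33 (SE 0.250, adjusted p = 0.000378) in acute injury, 1.36 (SE 0.259, adjusted p = 0.000469) in fibrosis, 0.42 in cirrhosis (not called, adjusted p = 0.136, and called at 0.76 under scaling by library size) and −0.89 (SE 0.0968, adjusted p = 3.92e-06) from fibrosis to cirrhosis. Tet2 was at 11.8 to 47.7 CPM (median 32.8) in healthy LSECs, with 50.9, 54.7, 59.9, 42.2 and 56.2 CPM in acute injury and 70.5, 65.3, 53.8, 54.8 and 56.1 CPM in fibrosis. In cirrhosis Tet2 was at 50.4 to 81.6 CPM (median 71.7), above every healthy library. Tet2 was called higher at each stage, with log2 fold changes of 0.92 (SE 0.310, adjusted p = 0.0161), 1.15 (SE 0.308, adjusted p = 0.00486) and 1.29 (SE 0.283, adjusted p = 0.00219), and its acute and healthy libraries overlapped. Tet1 was near the limit of detection, with 0.103 to 2.17 CPM (median 0.631) in healthy and 0.0817, 0.272, 0.250, 0.115 and 0.126 CPM in acute libraries, which is 3 to 10 counts in each of the latter. The acute value was called lower (−1.93, SE 0.752, adjusted p = 0.0324), and the call was lost without acute replicate 1, 4 or 8 and under scaling by library size. Fibrosis libraries held 0.230, 0.218, 0.366, 0.230 and 0.292 CPM (−1.17 against healthy, not called, but called lower in edgeR at −1.72, in DESeq2 at −1.68 and without healthy replicate 2 at −1.66). Cirrhotic libraries held 0.867 to 2.13 CPM (median 1.31), which was higher than in fibrosis by 2.23 (SE 0.329, adjusted p = 5.34e-05) and was not called against healthy LSECs (0.99) unless healthy replicate 6 was left out (1.38).

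Ezh1 and Ezh2 are the alternative catalytic subunits of PRC2, which places a repressive methyl mark on histone H3. Ezh2 was at 4.11 to 18.1 CPM (median 11.1) in healthy LSECs. It was at 20.3, 19.97, 24.4, 18.9 and 35.1 CPM in acute injury, 23.6, 26.4, 34.8, 22.5 and 24.3 CPM in fibrosis and 11.9 to 33.7 CPM (median 25.4) in cirrhosis. Every acute and fibrosis library lay above every healthy library, and cirrhotic and healthy libraries overlapped. Ezh2 was called higher at all 3 stages, by 1.31 (SE 0.345, adjusted p = 0.00394), 1.52 (SE 0.328, adjusted p = 0.00117) and 1.29 (SE 0.350, adjusted p = 0.00721), and cirrhosis differed from fibrosis by −0.17 (adjusted p = 0.507, not called). Ezh1 was at 53.3 to 90.3 CPM (median 69.9) in healthy LSECs, at 117, 132, 127, 113 and 133 CPM in acute injury and at 109, 112, 106, 102 and 111 CPM in fibrosis. Cirrhotic libraries held 48.1 to 60.5 CPM (median 53.6), below every fibrosis library. The log2 fold change of Ezh1 was 0.89 (SE 0.143, adjusted p = 0.000115), 0.72 (SE 0.132, adjusted p = 0.000373) and −0.33 (not called) against healthy LSECs, and −1.0 (SE 0.0670, adjusted p = 5.48e-08) from fibrosis to cirrhosis. Of 9 other PRC2 subunits, taken from a list of partners of the same machinery, 7 were higher and 1 lower in acute injury, 7 higher and 0 lower in fibrosis, and 6 higher and 2 lower in cirrhosis, with the core subunit Suz12 at 2.53, 2.30 and 1.42 (log2). From fibrosis to cirrhosis 7 of 9 were lower.

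Kmt5a, which puts the first methyl group on a lysine of histone H4, had the highest log2 fold change of the members in acute injury and in fibrosis. It was at 2.84 to 13.7 CPM (median 6.81) in healthy LSECs, 63.6, 68.8, 57.3, 60.3 and 74.2 CPM in acute injury and 57.2, 61.6, 56, 59.5 and 63.1 CPM in fibrosis. Cirrhotic libraries held 14.2 to 17.7 CPM (median 15.9), between the healthy and the fibrosis libraries without overlap on either side. On the log2 scale this was 3.28 (SE 0.317, adjusted p = 1.59e-06) in acute injury, 3.19 (SE 0.314, adjusted p = 2.23e-06) in fibrosis, 1.24 (SE 0.295, adjusted p = 0.00362) in cirrhosis and −1.90 (SE 0.0681, adjusted p = 4.07e-10) from fibrosis to cirrhosis. Its expected counts were not whole numbers in any of the 32 libraries, so that some of its reads were shared with another gene. Kmt5b and Kmt5c add further methyl groups to the same lysine, and they moved in opposite directions. Kmt5b was at 8.45 to 49.3 CPM (median 22.8) in healthy, 115, 127, 115, 113 and 137 CPM in acute, 113, 118, 97.2, 98.2 and 109 CPM in fibrosis and 46.4 to 73.2 CPM (median 60.6) in cirrhotic libraries, of which the last overlapped the healthy range. It was higher by 2.48 (SE 0.391, adjusted p = 9.37e-05), 2.34 (SE 0.393, adjusted p = 0.000185) and 1.46 (SE 0.367, adjusted p = 0.00497) against healthy LSECs, and lower in cirrhosis than in fibrosis, with a log2 fold change of −0.83 (SE 0.115, adjusted p = 3.39e-05). Kmt5c was called lower at all 3 stages, at −0.96, −0.88 and −0.60 (log2), and was the 1 member of the 16 Kmt and Setd genes called lower in acute injury and in fibrosis. Scaled by library size it was at −0.56, −0.49 and −0.26, called at no stage, and with DESeq2 size factors its call in cirrhosis was lost (−0.58).

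Setd2, which marks the bodies of transcribed genes on histone H3, was at 19.2 to 125 CPM (median 59.9) in healthy LSECs. It was at 245, 253, 246, 219.9 and 369 CPM in acute injury, 302, 317, 318, 302 and 301 CPM in fibrosis and 128 to 194 CPM (median 152) in cirrhosis, and no library of the 3 stages fell within the healthy range. The log2 fold changes were 2.34 (SE 0.423, adjusted p = 0.000282), 2.60 (SE 0.411, adjusted p = 0.000112) and 1.59 (SE 0.379, adjusted p = 0.00363), and −0.96 (SE 0.110, adjusted p = 6.19e-06) from fibrosis to cirrhosis. Setd1a, a catalytic subunit of the COMPASS complexes that mark active promoters, was at 68.2 to 104 CPM (median 85.4) in healthy, 192, 203, 203, 187 and 223 CPM in acute and 201, 197, 180.4, 186 and 173 CPM in fibrosis libraries. Cirrhotic libraries held 57 to 66.8 CPM (median 59.4), below every healthy library. Setd1a was higher by 1.28 (SE 0.132, adjusted p = 2.66e-06) and 1.21 (SE 0.121, adjusted p = 2.70e-06), at −0.48 in cirrhosis (below the fold-change threshold, adjusted p = 0.00627) and lower from fibrosis to cirrhosis, at −1.63 (SE 0.0650, adjusted p = 7.68e-10). Setd1b, its close relative, was at 1.46, 1.12 and −0.18 against healthy LSECs, called at the first 2 stages, and lower in cirrhosis than in fibrosis (−1.25). The Kmt2 genes, of which Kmt2a to Kmt2d encode the other COMPASS enzymes, differed among themselves. Kmt2a (1.48, 1.41 and 0.65) and Kmt2c (0.90, 0.94 and 1.08) were higher at all 3 stages and Kmt2d (1.20 and 0.95) in acute injury and fibrosis. For Kmt2a, healthy replicate 5 (116.1 CPM) lay above every cirrhotic library (90.7 to 115.2 CPM). For Kmt2c, healthy replicates 5 and 6 (68.4 and 71.9 CPM) lay within the acute and the fibrosis range. Cirrhotic libraries of Kmt2c (72.7 to 91.0 CPM) lay above every healthy one. Kmt2b was lower in cirrhosis (−0.78, and −0.43 and not called when scaled by library size) and Kmt2e higher (0.94), after values of −0.02 and 0.15 in acute injury that were not called. For Kmt2e, healthy replicate 6 (253.2 CPM) lay within the cirrhotic range (227.3 to 341.9 CPM). The expected counts of Kmt2c and Kmt2d were not whole in 29 and 21 of 32 libraries.

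Setd7, which methylates histone H3 and other proteins, was higher at 1.48, 1.79 and 1.21 (log2), and Setd5 at 1.06, 1.12 and 0.82. For Setd7, healthy replicate 6 (7.62 CPM) lay within the cirrhotic range (7.51 to 11.1 CPM). For Setd5, healthy replicate 5 (173.8 CPM) did so (157.8 to 198.2 CPM). Setd4 was higher in acute injury (0.87) and fibrosis (0.77) and lower in cirrhosis (−0.70), with 7.18 to 11.4 CPM (median 10.2) in healthy, 16.4, 19.4, 18.6, 19.97 and 13.1 CPM in acute, 16.2, 15.1, 15.5, 16.4 and 15.9 CPM in fibrosis and 5.66 to 6.97 CPM (median 5.77) in cirrhotic libraries. Cirrhotic and fibrosis libraries differed by −1.41 (SE 0.0796, adjusted p = 1.26e-08). Setd6 was higher in acute injury (0.92) and lower in cirrhosis (−0.62). The lower calls of Setd4 and Setd6 in cirrhosis were lost when libraries were scaled by size (−0.36 and −0.28). Setd3, known as a methyltransferase of actin, was called at no stage with TMM factors, at 0.58, 0.51 and 0.27. Scaled by library size it was called higher at all 3 stages (0.99, 0.91 and 0.62), and with DESeq2 size factors in acute injury (0.64). Of 7 further COMPASS subunits 4 were higher and 1 lower in acute injury, with the lower one Men1 at −1.37. Of 12 other lysine methyltransferases 10 were higher and 1 lower, and the lower one was Ehmt2, which places a silencing mark on histone H3, at −2.39.

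Lysine demethylases had their highest rises in acute injury and fibrosis in Kdm1a and Kdm5d. Kdm1a, also known as LSD1, removes methyl groups from histone H3 within the CoREST complex. It was at 34.4 to 51.1 CPM (median 44) in healthy, 186, 150.2, 177, 129 and 294 CPM in acute, 198, 190.0, 308, 167 and 233 CPM in fibrosis and 58 to 77.6 CPM (median 65.7) in cirrhotic libraries. Every cirrhotic library lay above every healthy library and below every acute and fibrosis library. Kdm1a was higher by 2.09 (SE 0.207, adjusted p = 1.94e-06), 2.38 (SE 0.170, adjusted p = 1.68e-07) and 0.62 (SE 0.132, adjusted p = 0.00191), and lower in cirrhosis than in fibrosis, with a log2 fold change of −1.71 (SE 0.145, adjusted p = 4.20e-07). Kdm5d, a demethylase of active promoters encoded on the Y chromosome, was at 4.52 to 20.5 CPM (median 7.68) in healthy and 43, 45.8, 47.8, 48.5 and 42.1 CPM in acute libraries. Fibrosis libraries held 39.9, 38, 33.5, 34.3 and 41 CPM and cirrhotic libraries 15.5 to 22 CPM (median 20.2), and its log2 fold changes were 2.33, 2.08 and 1.09 (adjusted p = 2.84e-05, 9.80e-05 and 0.00787). Cirrhotic and healthy libraries of Kdm5d overlapped, and its expected counts were not whole in 8 of 32 libraries. Kdm7a was at 1.10 to 10.03 CPM (median 5.29) in healthy, 14, 15.8, 13.4, 16.6 and 15 CPM in acute, 14.2, 13.2, 14.6, 15.3 and 14.6 CPM in fibrosis and 8.77 to 16.2 CPM (median 12.3) in cirrhotic libraries, with log2 fold changes of 1.75, 1.73 and 1.43, all called.

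Kdm6a and Kdm6b remove the methyl mark that PRC2 places, and they were called in opposite directions in acute injury and fibrosis. In cirrhosis this held with TMM factors, and Kdm6b was not called when scaled by library size (−0.28). Kdm6b was at 897 to 1773 CPM (median 1158) in healthy LSECs, 206, 180.5, 204, 192 and 277 CPM in acute injury and 231, 227, 221, 233 and 211 CPM in fibrosis. In cirrhosis it was at 559.7 to 927 CPM (median 809), above every fibrosis library and overlapping the healthy ones at the low end. Kdm6b changed by −2.46 (SE 0.187, adjusted p = 2.09e-07), −2.33 (SE 0.162, adjusted p = 1.34e-07) and −0.63 (SE 0.191, adjusted p = 0.0131) on the log2 scale, and was higher in cirrhosis than in fibrosis by 1.75 (SE 0.119, adjusted p = 6.00e-08). Kdm6b is known as an inducible gene, and the sums of immediate-early genes given before were low in the same groups. Their part in the values of Kdm6b was not tested. Kdm6a was at 11.1 to 52.9 CPM (median 30.2) in healthy, 69.9, 65.7, 68.2, 63.2 and 75.6 CPM in acute, 75, 75.5, 64.2, 68.8 and 69.8 CPM in fibrosis and 54.9 to 75.9 CPM (median 61) in cirrhotic libraries. It was higher by 1.35 (SE 0.345, adjusted p = 0.0033), 1.43 (SE 0.346, adjusted p = 0.00258) and 1.20 (SE 0.318, adjusted p = 0.00647), with expected counts that were not whole in any library. Kdm4b, one of the demethylases of silent chromatin, was lower at −0.72, −0.79 and −1.37, with 87 to 188 CPM (median 163) in healthy, 85.3, 84, 91, 82.2 and 101 CPM in acute, 83.2, 79.2, 88.6, 74.8 and 85.6 CPM in fibrosis and 54.2 to 60.5 CPM (median 56.9) in cirrhotic libraries. Cirrhotic and healthy libraries of Kdm4b did not overlap, and its calls in acute injury and fibrosis were lost when scaled by library size (−0.30 and −0.39). Its relatives Kdm4a (0.62 and 0.61) and Kdm4c (1.15, 1.06 and 0.87) were called higher, Kdm4a in acute injury and fibrosis and Kdm4c at each stage. For Kdm4c, healthy replicates 5 and 6 (34.9 and 39.0 CPM) lay within the cirrhotic range (26.2 to 41.0 CPM). Healthy replicate 6 also lay within its fibrosis range (36.6 to 39.1 CPM). Kdm4d was at 19 counts or fewer in all 22 CCl4 libraries and was not tested.

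The other demethylases are given by their log2 fold changes against healthy LSECs. Kdm1b (1.30, 1.0 and 0.87), Kdm3a (1.0, 1.20 and 0.69) and Kdm5a (1.23, 1.12 and 1.09) were called higher at each stage. Healthy replicate 6 of Kdm1b (11.99 CPM) lay within the fibrosis (11.3 to 13.7 CPM) and cirrhotic (9.31 to 16.1 CPM) ranges. Healthy replicates 5 and 6 of Kdm3a (144.1 and 127.9 CPM) lay within the cirrhotic range (124.5 to 158.0 CPM). Those of Kdm5a (163.8 and 183.3 CPM) did so too (156.3 to 229.7 CPM). Kdm2b, which binds unmethylated CpG islands, was higher in acute injury (0.85) and fibrosis (0.91) and lower in cirrhosis than in fibrosis (−1.15). Kdm2a, Kdm3b, Kdm5b and Kdm5c were called at no stage against healthy LSECs with TMM factors. Scaled by library size, Kdm3b (0.94 and 0.85), Kdm5b (0.92 and 0.88) and Kdm5c (0.79 and 0.63) were called higher in acute injury and fibrosis. Kdm2a was called higher in cirrhosis under that scaling (0.65). Kdm8 was called lower in cirrhosis, at −0.91, after uncalled values of 0.24 and −0.16. Scaled by library size it was at −0.57 and not called in cirrhosis, and was called higher in acute injury (0.64).

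Among lysine acetyltransferases, Kat6a and its relative Kat6b were higher at all 3 stages. Kat6a was at 28.3 to 123 CPM (median 67.5) in healthy, 185, 200.3, 176, 189 and 189.5 CPM in acute, 169, 176, 184, 169 and 179.6 CPM in fibrosis and 139 to 190.4 CPM (median 174) in cirrhotic libraries, with every library of the 3 stages above every healthy one. Its log2 fold changes were 1.56 (SE 0.341, adjusted p = 0.00115), 1.49 (SE 0.341, adjusted p = 0.00172) and 1.37 (SE 0.310, adjusted p = 0.00264), and those of Kat6b 1.15, 1.25 and 1.04. Kat2a and Kat2b, which are alternative catalytic subunits of the same complexes, parted in cirrhosis. Kat2a was at 27.6 to 57 CPM (median 49.2) in healthy, 71.1, 72.5, 72.3, 82 and 64.9 CPM in acute, 57.4, 60.04, 59.3, 57.6 and 60.03 CPM in fibrosis and 21.5 to 25.5 CPM (median 22.9) in cirrhotic libraries, and was called higher in acute injury (0.70), lower in cirrhosis (−0.98) and lower from fibrosis to cirrhosis (−1.36). Kat2b was higher in cirrhosis (0.75, and 0.81 against fibrosis). Healthy replicates 5 and 6 (29.0 and 30.5 CPM) lay above every cirrhotic library of Kat2b (21.7 to 27.3 CPM), and the other healthy libraries held 7.32 to 12.3 CPM. Kat8, which acetylates histone H4, was higher in acute injury (0.94) and fibrosis (0.73), with expected counts that were not whole in any library. Kat5 and Kat7 were called at no stage against healthy LSECs.

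**Figure D4:**
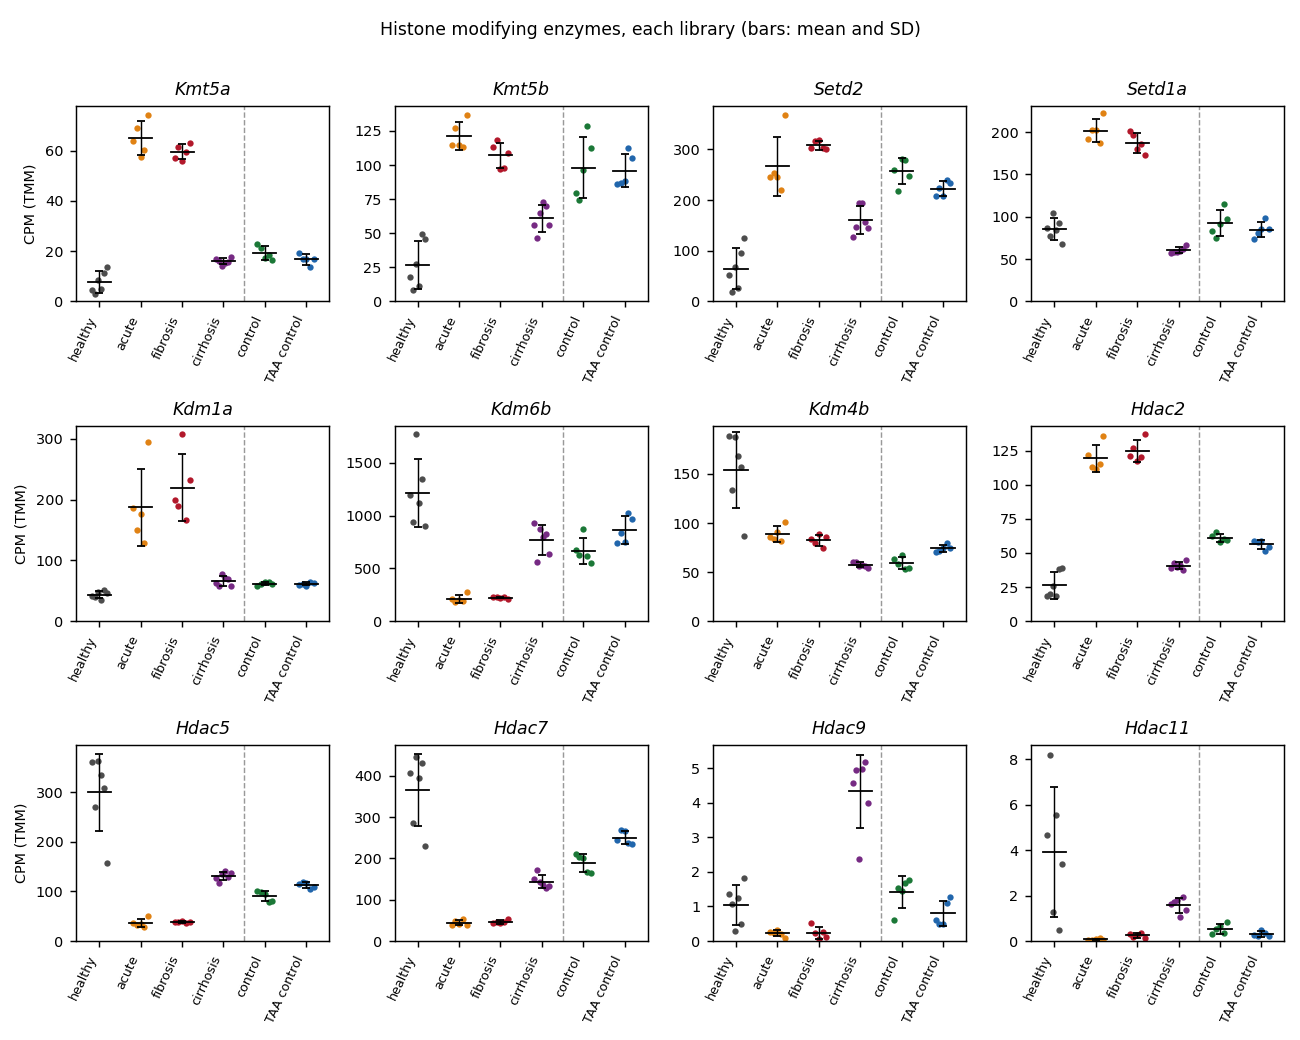
CPM with TMM factors of 12 histone modifying enzymes in each library (points), with the mean and SD of each group (bars), and a dashed line between the CCl4 and the TAA experiment, which were scaled apart. Kmt5a, Kmt5b, Setd2, Setd1a, Kdm1a and Hdac2 are highest in the acute and fibrosis groups, and Kdm6b, Hdac5 and Hdac7 are lowest there.

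Class IIa deacetylases were divided. These enzymes shuttle between cytoplasm and nucleus and hold MEF2 factors in check. Hdac7, the class IIa enzyme best known in endothelium, was at 229 to 446 CPM (median 402) in healthy LSECs. It was at 39.7, 47.3, 41.5, 52.8 and 39.5 CPM in acute injury, 42.6, 45.5, 43.6, 45.5 and 52.9 CPM in fibrosis and 128 to 173 CPM (median 139) in cirrhosis, and cirrhotic libraries lay between the others without overlap. Its log2 fold change was −2.98 (SE 0.186, adjusted p = 4.03e-08), −2.89 (SE 0.179, adjusted p = 5.07e-08) and −1.31 (SE 0.181, adjusted p = 0.000156) against healthy LSECs, and 1.64 (SE 0.0877, adjusted p = 8.14e-09) from fibrosis to cirrhosis. Hdac5 was at 158 to 364 CPM (median 322) in healthy LSECs, 35.8, 32.6, 34.1, 28.4 and 51.3 CPM in acute injury, 39.2, 38.5, 40.8, 36.2 and 37.5 CPM in fibrosis and 117 to 142 CPM (median 132) in cirrhosis. This was −2.99 (SE 0.230, adjusted p = 2.30e-07), −2.85 (SE 0.201, adjusted p = 1.49e-07), −1.14 (SE 0.196, adjusted p = 0.000506) and, from fibrosis to cirrhosis, 1.77 (SE 0.0650, adjusted p = 5.01e-10). Hdac4, of the same class, was called higher in acute injury (0.94) and in fibrosis (0.90) and not in cirrhosis (0.12). Hdac9, the remaining class IIa gene, was low in all groups and turned in cirrhosis. It was at 0.287 to 1.83 CPM (median 1.15) in healthy, 0.272, 0.245, 0.306, 0.207 and 0.0947 CPM in acute, 0.517, 0.218, 0.0665, 0.258 and 0.117 CPM in fibrosis and 2.36 to 5.18 CPM (median 4.75) in cirrhotic libraries, where every library was above every healthy one. Hdac9 was called lower in acute injury (−2.0) and fibrosis (−2.09), on 2 to 18 counts a library, and higher in cirrhosis by 2.19 (SE 0.386, adjusted p = 0.000577) against healthy and 4.35 (SE 0.484, adjusted p = 4.73e-06) against fibrosis. Fibrosis and acute injury could not be compared for Hdac9, Hdac11 and Tet1, which did not pass the low-count filter there.

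Class I deacetylases did not share one direction. Hdac2, a catalytic subunit of the NuRD, Sin3 and CoREST complexes, was at 18.2 to 39.1 CPM (median 22.6) in healthy, 122, 113, 112, 115 and 135 CPM in acute, 121, 127, 118, 121 and 137 CPM in fibrosis and 37.3 to 44.5 CPM (median 40.6) in cirrhotic libraries. It was higher by 2.27 (SE 0.220, adjusted p = 1.65e-06), 2.37 (SE 0.215, adjusted p = 1.19e-06) and 0.70 (SE 0.197, adjusted p = 0.00888), and lower from fibrosis to cirrhosis, with a log2 fold change of −1.62 (SE 0.0663, adjusted p = 9.48e-10). Hdac1, its partner in the same complexes, was at −0.16, −0.46 and 0.44, none called, and was higher in cirrhosis than in fibrosis (0.95), with expected counts that were not whole in any library. Scaled by library size, Hdac1 was called higher in cirrhosis against healthy LSECs (0.78). Hdac3 was lower in cirrhosis (−0.93) and Hdac8 was called at no stage. Of 13 genes of the deacetylase complexes, from a list of 12 symbols with Rcor1 under 2 identifiers, 7 were higher and 2 lower in acute injury and in fibrosis, and 4 were higher and 1 lower in cirrhosis. Hdac10 was lower in cirrhosis (−0.92, and −0.58 and not called when scaled by library size). Hdac11, the class IV enzyme, was at 0.465 to 8.21 CPM (median 4.05) in healthy and 0.0545, 0.0545, 0.111, 0.115 and 0.0316 CPM in acute libraries, the latter on 1 to 5 counts each. Fibrosis libraries held 0.316, 0.156, 0.266, 0.373 and 0.146 CPM and cirrhotic libraries 1.04 to 1.93 CPM (median 1.68). It was called lower in acute injury and fibrosis, and higher in cirrhosis than in fibrosis by 2.63 (SE 0.317, adjusted p = 9.34e-06). Hdac6, a cytoplasmic deacetylase of tubulin, was listed at 0 in all 5 acute and all 5 fibrosis libraries, with 217.13 to 529.17 expected counts in healthy and 245.73 to 464.87 in cirrhotic libraries. None of its 16 values above 0 over the 32 libraries was a whole number, so that its reads were shared with another gene and a listed 0 may be an estimate that failed. No fold is given for Hdac6, and without it the calls are 48, 46, 41, 0, 34 and 4 members in the 6 comparisons in the order of the plotted columns.

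All 6 sirtuins matched had negative log2 fold changes against healthy LSECs at each stage. The nuclear sirtuin Sirt6, a deacetylase of histone H3 tied to genome stability, was at 33.1 to 78.3 CPM (median 67.3) in healthy LSECs. It was at 29.4, 30.4, 25.4, 29.4 and 21.9 CPM in acute injury, 20.9, 20.3, 23.2, 21 and 23.8 CPM in fibrosis and 18.5 to 22.7 CPM (median 21.2) in cirrhosis, and every library of the 3 stages was below every healthy one. Its log2 fold changes were −1.14 (SE 0.219, adjusted p = 0.000433), −1.43 (SE 0.214, adjusted p = 7.55e-05) and −1.55 (SE 0.210, adjusted p = 0.000148), and that of cirrhosis was the lowest of the members. Sirt7, a nucleolar sirtuin, was at 23 to 65.3 CPM (median 48.6) in healthy, 26.5, 26.6, 22.8, 29.8 and 20.4 CPM in acute, 23.2, 22.6, 20.4, 21.8 and 22.3 CPM in fibrosis and 16.4 to 20.3 CPM (median 18.6) in cirrhotic libraries, or −0.75, −0.91 and −1.22 (adjusted p = 0.0129, 0.00394 and 0.000788). Healthy replicate 6 held the lowest healthy value of both genes, and it was the healthy library of Sirt7 that overlapped the acute group. Of the mitochondrial sirtuins, Sirt3, the main mitochondrial deacetylase, was at 8.48 to 22.9 CPM (median 14.6) in healthy, 3.32, 3.08, 3.67, 4.42 and 2.53 CPM in acute, 4.22, 3.31, 3.62, 4.71 and 4.32 CPM in fibrosis and 5.60 to 7.34 CPM (median 6.21) in cirrhotic libraries. Sirt3 differed by −2.04 (SE 0.297, adjusted p = 4.95e-05), −1.76 (SE 0.282, adjusted p = 0.000127) and −1.16 (SE 0.242, adjusted p = 0.00166), and was higher in cirrhosis than in fibrosis by 0.65 (SE 0.127, adjusted p = 0.000518). Sirt4 (−0.84, −1.06 and −0.73) and Sirt5, which removes succinyl and malonyl groups (−0.84, −0.83 and −0.90), were lower at each stage. Sirt2, mainly cytoplasmic, was at 110.2 to 203 CPM (median 161) in healthy, 73.7, 70.1, 77.4, 70.4 and 76 CPM in acute, 71.7, 69.1, 71.2, 67.2 and 66.4 CPM in fibrosis and 99.3 to 121 CPM (median 103) in cirrhotic libraries. It was lower in acute injury (−1.09) and fibrosis (−1.14), at −0.58 in cirrhosis (adjusted p = 0.00747, below the fold-change threshold) and higher in cirrhosis than in fibrosis (0.62). Scaled by library size, the calls of Sirt3 and Sirt2 between cirrhosis and fibrosis were lost (0.54 and 0.51), as were those of Sirt4 in acute injury and cirrhosis, Sirt5 at each stage and Sirt7 in acute injury and fibrosis against healthy LSECs. The other 4 were not called between fibrosis and cirrhosis.

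**Figure D5:**
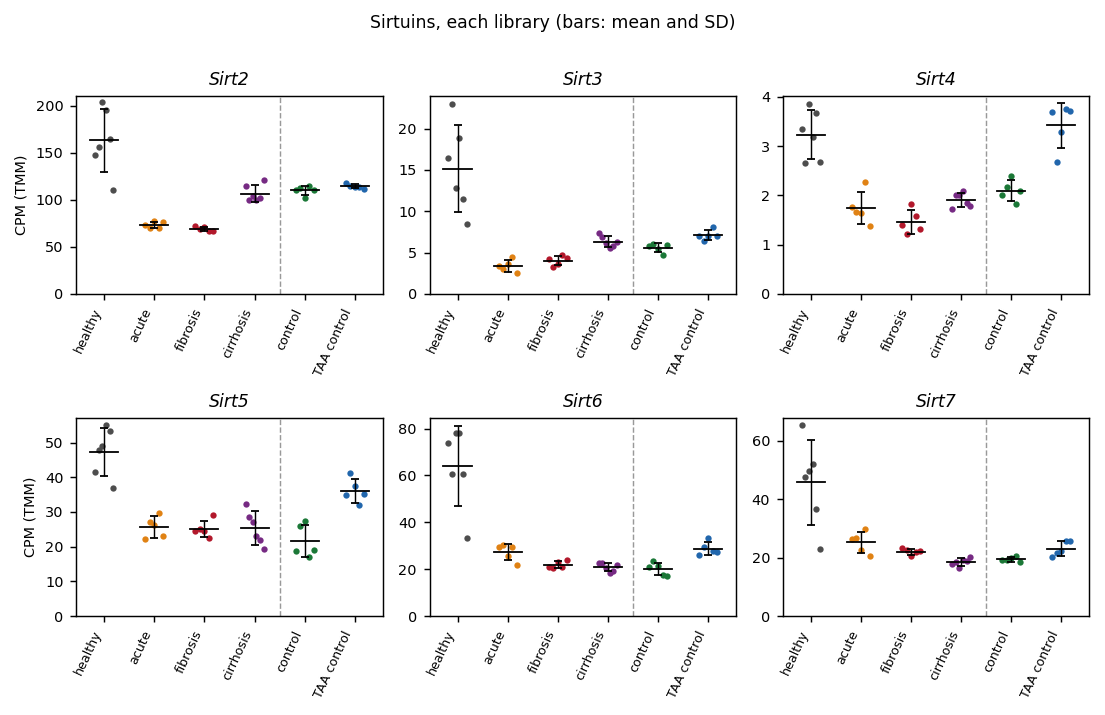
CPM with TMM factors of the 6 sirtuins in each library (points), with the mean and SD of each group (bars), and a dashed line between the CCl4 and the TAA experiment, which were scaled apart. The acute and fibrosis libraries lie below the healthy ones in 5 of the 6 genes, Sirt7 being the exception, and cirrhotic libraries of Sirt6 lie near the level of the fibrosis libraries.

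In the TAA experiment the groups were compared as labelled, without a direction of disease. Of 64 members tested 3 were higher in the group labelled TAA control (4.69%, beside 12.7% of all genes) and 1 was lower (1.56%, beside 14.9%), and 20 members did not overlap (31.2%, beside 35.4%). Sirt5 was at 18.7, 26.1, 27.3, 17.1 and 19.1 CPM in the group labelled control and 34.8, 41.3, 37.3, 32 and 35.3 CPM in the group labelled TAA control, a difference of 0.76 (SE 0.133, adjusted p = 0.000906). Sirt4 was at 2.01, 2.17, 2.40, 1.83 and 2.09 against 3.70, 2.67, 3.29, 3.75 and 3.71 CPM (0.69, SE 0.147, adjusted p = 0.00293), and Kat8 at 10.6, 11.6, 11.7, 10.6 and 10.1 against 15.8, 15.8, 20.03, 16.7 and 20.4 CPM (0.69, SE 0.101, adjusted p = 0.000335). Ezh2 was the 1 member called lower in the group labelled TAA control, with 30.2, 26, 40.3, 35.9 and 38 against 20.2, 20.7, 20.2, 22.8 and 23.9 CPM (−0.65, SE 0.122, adjusted p = 0.0014). The libraries of the groups did not overlap in any of these 4 genes. With no fold-change threshold 26 of 64 members passed the adjusted p-value, 21 higher and 5 lower, beside 49.7% of all genes. Marker lists differed between these groups as well. The sum of the 7 stellate cell and fibroblast genes was 1681 to 4624 CPM in the group labelled control and 204 to 304 in the other, the sum of the immediate-early list was 12582 to 26297 and 39364 to 55801 CPM, and 8 of 11 proliferation genes were lower in the group labelled TAA control, and the part of these in the 4 calls was not tested. The DNA methyltransferases, the TET dioxygenases and Ezh1 were not called, and their values are given for the group labelled control and then the group labelled TAA control. Dnmt1 was at 82.1, 78.9, 67.7, 67.7 and 57.2 against 73.8, 66.6, 75, 69.2 and 68.1 CPM (0.01). Dnmt3a was at 42.3, 33.2, 30.7, 26.9 and 21.7 against 24.6, 27.7, 27.7, 31 and 28.7 CPM (−0.11). Dnmt3b was at 2.47, 2.38, 2.11, 2.99 and 2.30 against 1.60, 2.80, 2.44, 2.37 and 1.40 CPM (−0.23). The groups overlapped in all 3 DNA methyltransferases. Tet1 was at 2.33, 2.14, 2.29, 1.16 and 1.22 against 2.95, 1.97, 2.14, 3.12 and 2.95 CPM (0.56). Tet2 was at 114, 109, 143, 157 and 134 against 84.5, 101, 88.4, 124 and 113 CPM (−0.37). Tet3 was at 84.4, 65.6, 73.6, 62 and 71.7 against 59.2, 67.5, 56, 64.4 and 58.3 CPM (−0.22). The groups overlapped in all 3 TET genes. Ezh1 was at 53.9, 56.7, 58.7, 40.9 and 40.6 against 69.2, 70.4, 73.2, 69.4 and 67.1 CPM (0.50). The groups did not overlap in Ezh1, which passed the adjusted p-value (0.00366) and not the fold-change threshold.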

How the data were processed

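Poly(A) RNA of LSECs was sequenced in 32 libraries, one file each. Per the labels and the methods, the authors trimmed reads with Trim Galore, aligned strand-specific reads with STAR (genome Rnor_6.0) and estimated gene counts with RSEM. The deposited values are expected counts for 32623 genes, not normalized. RSEM divides reads that fit several genes, which makes near-copies of other genes less certain. Between 25646531 and 46464289 counts per library limit the precision of genes near 0.

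Expected counts were rounded and tested in R 4.3.3 with limma 3.58.1 (limma-voom, two-sided), TMM factors and filterByExpr from edgeR 4.0.16, fitting the 2 groups compared. Calls needed a Benjamini-Hochberg adjusted p-value under 0.05 over all genes tested and a fold-change above 1.5. Fold changes of the text are log2, with the moderated standard error (SE). Log2 CPM has a pseudocount of 0.5. DESeq2 1.42.0 was an alternative. Tests were checked on simulated data. Figures used Python 3.11.15 and matplotlib 3.10.9.

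Groups came from the labels, except that the 12 to 14 weeks of the cirrhotic libraries came from the series description, and titles were used where titles and descriptions of the TAA control libraries number the rats differently. Replicates are libraries of separate number, and where these are not separate rats, p-values measure only the spread between libraries. TAA control replicates 14 and 15 were closest to each other (chi-square per degree of freedom 3.05, at least 25.2 between other libraries of one group) and were kept as 2. Members, partner and marker lists were chosen with earlier results of these data known. Library values (for the groups of 6, lowest, median and highest) are given for the Dnmt, TET and Ezh genes and, in the groups compared, for the 4 highest and 4 lowest called members of each comparison with a mean of at least 1 CPM, with Hdac6 by its expected counts, and for some others chosen after their values were seen (Setd4, Kat6a, Kat2a, Kdm6a, Kdm6b, Sirt2 and Sirt3). Gene positions in Rnor_6.0 are not given here.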

Additional observations from a re-analysis of the deposited data

Results flagged for a closer look

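Each group was searched for a library at one end whose gap to the nearest other library was above Dixon's 95% critical value. The search covered total counts, TMM factors and the tested Dnmt, TET and Ezh genes. It also covered the 4 highest and 4 lowest called members of each comparison, without Hdac6. Members given with library values after these were seen (Setd4, Kat6a, Kat2a, Kdm6a, Kdm6b, Sirt2 and Sirt3) were not searched. Of 168 groups looked at 10 were above it, and about 8.4 are reached by chance alone. On the log2 CPM scale, healthy replicate 6 was lowest for Hdac5 (7.312) and Sirt6 (5.072). Acute replicate 8 was highest for Dnmt3a (4.564) and Setd2 (8.528), and acute replicate 2 was highest for Tet3 (6.502). Fibrosis replicate 16 was highest for Dnmt3a (4.599). Hdac9 was lowest in cirrhosis replicate 3 (1.517) and in replicate 1 of the group labelled control (0.1367). Total counts were highest in acute replicate 4 (36916992) and in replicate 5 of the group labelled control (32631606).

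Effects that differed between stages were searched for as opposite calls against healthy LSECs in fibrosis and in cirrhosis. A call in cirrhosis against fibrosis was required as well. Hdac9 and Setd4 met both conditions. Hdac9 was lower in fibrosis and higher in cirrhosis. The test of cirrhosis against fibrosis in limma-voom, which was part of the selection, gave it a log2 fold change of 4.35. Setd4 was higher in fibrosis and lower in cirrhosis, with −1.41 in the same test. Its lower call in cirrhosis against healthy LSECs was lost when libraries were scaled by size without TMM (−0.36).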

How the results depend on the processing

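Calls of members in the 6 comparisons stayed within 1.5 times the reported counts under edgeR, DESeq2, DESeq2 size factors, library size without TMM, a mean of at least 1 CPM and one fit over the CCl4 groups. With no fold-change threshold the counts were 3 for fibrosis against acute injury, 53 for cirrhosis against fibrosis and 26 for the TAA experiment, and with no low-count filter fibrosis against acute injury had 1. Leaving out each library gave 46 to 52 members for acute, 46 to 48 for fibrosis and 36 to 44 for cirrhosis against healthy, 0 for fibrosis against acute injury, 34 to 37 for cirrhosis against fibrosis and 4 to 7 for the TAA experiment, where 7 were reached without replicate 1 of the group labelled control. Leaving out Hdac6 was chosen after seeing the data.

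Over all members tested, scaling by library size turned the sign of 7, 6, 10, 7, 1 and 6 members in the 6 comparisons (acute, fibrosis and cirrhosis against healthy, fibrosis against acute injury, cirrhosis against fibrosis and TAA), among them 4 HDACs in acute injury and 5 lysine demethylases in cirrhosis, and DESeq2 size factors that of 2, 1, 1, 0, 1 and 4. None of these was called, and the cause was not tested. Under library size 7, 4 and 9 lower calls against healthy LSECs and 2 higher calls from fibrosis to cirrhosis were lost, while 6, 6 and 4 higher calls and 4 lower ones from fibrosis to cirrhosis were gained. Other alternatives were recomputed by gene for the Dnmt, TET and Ezh genes and the members with the highest and lowest fold changes. Sign changes among these were Dnmt1 (0.21) and Ezh1 (0.0119) in cirrhosis against healthy under library size, Tet3 (−0.00416) in fibrosis against acute injury in one fit, Dnmt3b (0.0214, from −0.10 without fibrosis replicate 17) there without acute replicate 8, and Ezh2 (0.0364, from −0.27 without cirrhosis replicate 3) in cirrhosis against fibrosis without cirrhosis replicate 2. In the TAA experiment Dnmt1 was at −0.00326 in edgeR, −0.0212 in DESeq2, −0.0111 with DESeq2 size factors and −0.0291 under library size, and at −0.0106, −0.00751, −0.0686, −0.0076 and −0.0129 without control replicates 3, 4 and 5 and TAA control replicates 10 and 13, and up to 0.064 without control replicate 1. Dnmt3a was at 0.00802 without control replicate 1, and at −0.24 at the other end, without control replicate 5.

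With replicate number as a block 51 members were called for acute and 38 for cirrhosis against healthy, the acute call of Tet1 was lost (−1.13) and Dnmt3a passed in acute injury (0.70). Healthy, acute and cirrhotic rats share only numbers, and same-numbered libraries did not deviate together (correlation of deviations 0.0314 to 0.203 for healthy and acute, −0.25 to 0.316 for healthy and cirrhotic libraries). In the other 4 comparisons the groups share no number. Genes under about 10 counts a library, as Hdac9, Hdac11 and Tet1 in acute injury, were limited by depth.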

Other observations

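Partners of the same machinery outside the families of the report were taken from 79 listed symbols, of which 76 were in the tables and 1 of these (Rcor1) under 2 identifiers. Of 76 such genes tested 46 were higher and 8 lower in acute injury, 47 and 8 in fibrosis and 27 and 15 in cirrhosis, each against healthy LSECs, and 7 were higher and 37 lower in cirrhosis than in fibrosis (limma-voom, with the background shares given in the report). Between fibrosis and acute injury 4 were higher and 0 lower. Arginine methyltransferases, which methylate histones, splicing and ribosomal proteins, had 5 of 8 higher and 0 lower in acute injury and in fibrosis, 0 higher and 4 lower in cirrhosis, and 0 higher and 5 lower from fibrosis to cirrhosis. Prmt3 was at a mean of 7.02 CPM in healthy, 90.2 in acute, 61.2 in fibrosis and 9.80 in cirrhotic libraries, with log2 fold changes of 3.71, 3.18 and 0.49 (the last not called). Prmt5 was at 24.5, 111.9, 80.4 and 15.4 CPM, with 2.24, 1.81 and −0.64, all called.

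Genes that work with DNA methylation had 6 of 10 higher and 1 lower in acute injury. Uhrf1, which brings Dnmt1 to newly made DNA, was at −0.41, −0.60 and −0.15 (log2) at the 3 stages, none called, and its relative Uhrf2 at 2.21, 2.12 and 0.60, all called. The stress genes Gadd45a and Gadd45b moved in opposite directions, Gadd45a at 2.45, 3.41 and 1.44 and Gadd45b at −3.40, −1.99 and −0.86, all called, and both were higher in fibrosis than in acute injury (1.01 and 1.46). Among 5 acetyl-lysine readers 3 were higher and 1 lower in acute injury, and the lower one was Brd2 at −0.84. Of 6 other acetyltransferases 3 were higher and 1 lower, with Crebbp at 1.37 and Ncoa3 at −0.88. Of 6 other demethylases 1 was higher in acute injury, Riox2 at 3.92. Genes named from these lists were chosen after their values were seen, and their calls were made with TMM factors alone.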
